A study of Mus musculus with 6 samples.

Results

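B cell and plasma cell genes were followed in the colorectal tissue of mice with colitis that received either berberine (BBR), a plant alkaloid, or sulfasalazine (SASP), an established colitis drug of the aminosalicylate class. The set held 9 genes of the 18268 listed, taken by symbol: 5 that mark B cells (Cd79a, Cd79b, Ms4a1, Pax5 and Cd22) and 4 that mark plasma cells or their precursors (Mzb1, Pou2af1, Jchain and Tnfrsf17). All 9 were listed. The 3 BBR mice and the 3 SASP mice were adult C57BL/6 males that drank dextran sulfate sodium (DSS), which injures the gut lining, for 7 days and received the drug by gavage for 6 days. Healthy mice and mice with untreated colitis were not analysed here, so every difference is between the drugs and none is a change from an untreated state. Levels are FPKM, read abundance scaled for transcript length and library size, with 1 value per gene and mouse.

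B cells carry an antigen receptor, an antibody anchored in the membrane that signals through the paired chains Cd79a and Cd79b. In the colon they gather in lymphoid follicles, where they meet antigen and can switch to making IgA. Plasma cells descend from them, lose much of the B cell programme and settle through the lamina propria, where they secrete IgA dimers joined by the J chain, the product of Jchain, for transport across the epithelium.

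The B cell genes leaned to the SASP mice, while the plasma cell genes were mixed. All 5 B cell genes had a higher mean in SASP than in BBR mice, with a ratio of means between 5.78 (Ms4a1) and 12.6 (Cd22) in the 4 genes above 0 in every mouse, and the groups did not overlap in Cd79a, Cd79b and Cd22. All BBR mice lay under all SASP mice in 16.6% of the tested genes and in 3.46% of the genes too low to test. Cd79b alone passed the test across all genes, as did 8.86% of the tested genes, but it was high enough to be tested only in the SASP mice and did not pass when low genes were tested too. Among the plasma cell genes Jchain was highest in BBR mice 1 and 2 and low in BBR mouse 3. Of the 3 tested plasma cell genes 0 passed (limma, 0 of 3 also at an unadjusted p under 0.05, beside 3837 of all 12072). The spread between mice of a group was wide in both sets.

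The stretches before the transcription start of 3 members are shown: Cd79a and Cd22, 2 B cell genes whose groups did not overlap, and Jchain, the most abundant plasma cell gene. Cd79a and Jchain did not pass the threshold, and Cd22 was too low to test. RefSeq windows on GRCm38.p6 were used for 6 of the 9 genes and were cut to the 250 bases before the start. No window of Cd79b, Ms4a1 or Mzb1 was searched. Bases that GENCODE M21 annotates as exon were then left off. They are printed 5′ to 3′ on the gene's own strand, with capitals marking matches to the motifs searched: the octamer ATGCAAAT, the core CCCNNGGG bound by EBF1, the ETS core GGAAGTG, the E-box CAGGTG and the TATA box TATAAA, on both strands. The Cd79a stretch lies at chr7:24897247-24897380 on the plus strand, the Cd22 stretch at chr7:30879029-30879176 on the minus strand and the Jchain stretch at chr5:88527898-88528147 on the minus strand.
Cd79a: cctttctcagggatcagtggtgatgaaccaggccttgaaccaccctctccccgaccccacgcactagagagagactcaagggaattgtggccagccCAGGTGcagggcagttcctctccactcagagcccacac
Cd22: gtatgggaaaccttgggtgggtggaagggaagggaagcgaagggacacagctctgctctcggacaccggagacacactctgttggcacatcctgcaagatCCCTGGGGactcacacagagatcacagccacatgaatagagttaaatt
Jchain: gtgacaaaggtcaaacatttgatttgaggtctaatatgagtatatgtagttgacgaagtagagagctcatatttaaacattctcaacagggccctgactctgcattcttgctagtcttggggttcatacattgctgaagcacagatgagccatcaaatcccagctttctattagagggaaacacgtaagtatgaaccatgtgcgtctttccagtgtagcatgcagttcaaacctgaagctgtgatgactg

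The Cd79a stretch holds 1 E-box, from base -154 to -149 counted from the start, and the Cd22 stretch holds 1 EBF1 core, from base -48 to -41. Among all 32851 RefSeq windows of 250 bases, 17.2% held the E-box and 11.8% the EBF1 core. The Cd22 window also held an E-box on the opposite strand from base -245 to -240, the Cd79a window an ETS core from base -54 to -48, both outside the printed stretches, and the Tnfrsf17 window a TATA box from base -114 to -109. The ETS core was in 8.55% and the TATA box in 12.4% of all windows. The Jchain stretch held none of the letters searched, which says only that they are not in this window. The octamer, the site at which the Pou2af1 protein acts with POU factors on antibody genes, was in 1.60% of all windows and in none of the 6 member windows.

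Cd79a and Cd79b encode the signalling chains of the B cell receptor. Cd79a was at 1.56, 1.38 and 0.05 FPKM in BBR mice 1, 2 and 3 while SASP mice 1, 2 and 3 were at 13.35, 2.32 and 7.10 FPKM. Every SASP mouse lay above every BBR mouse, though SASP mouse 2 was close to BBR mouse 1. The means were 0.997 ± 0.825 FPKM for BBR against 7.59 ± 5.53 FPKM for SASP (SD, n = 3 each), and the fold change on the scale of log2(FPKM + 1) was -1.97 with an SE of 0.57, which did not pass the threshold (limma adjusted p = 0.0716). Cd79b was at 0.33, 0.56 and 0.18 FPKM under BBR against 6.66, 1.42 and 2.95 FPKM under SASP. The groups did not overlap, and SASP mouse 1 again stood above the others. The log2 fold change of Cd79b was -1.63 (SE 0.39, limma adjusted p = 0.0489). Cd79b reached the filter of at least 1 FPKM in 3 mice only through the SASP group, in which it was high, and with no filter it did not pass (limma adjusted p = 0.0811). Of all 12072 genes tested, 8.86% passed the threshold in either direction and 5.04% as lower and 3.82% as higher in BBR mice. Leaving out any single SASP mouse took it under the filter, and its limma adjusted p was 0.111 without BBR mouse 1 and 0.103 without BBR mouse 2.

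The other 3 B cell genes did not reach the filter and were not tested at these levels. Ms4a1, which encodes the surface protein CD20, was at 0.14, 0.22 and 0.73 FPKM under BBR against 3.95, 0.43 and 1.92 FPKM under SASP. Here BBR mouse 3 exceeded SASP mouse 2, so the groups overlapped. Cd22, a sialic acid binding receptor that dampens B cell receptor signalling, was at 0.11, 0.22 and 0.07 FPKM under BBR against 3.18, 0.36 and 1.48 FPKM under SASP, with no overlap. Pax5, the transcription factor that holds B cell identity and is shut off in plasma cells, had no FPKM above 0 in BBR mice 1 and 3 and 0.08 FPKM in BBR mouse 2, against 0.84, 0.07 and 0.51 FPKM under SASP. BBR mouse 2 and SASP mouse 2 thus had nearly the same Pax5 value. Values this low rest on few reads. At the approximate depth of 16400000 to 18200000 reads per mouse, the Pax5 values correspond to about 0, 11 and 0 reads in BBR mice 1, 2 and 3 and to about 119, 10 and 68 reads in SASP mice, and the 0.05 FPKM of Cd79a in BBR mouse 3 to about 1 read.

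**Figure D1:**
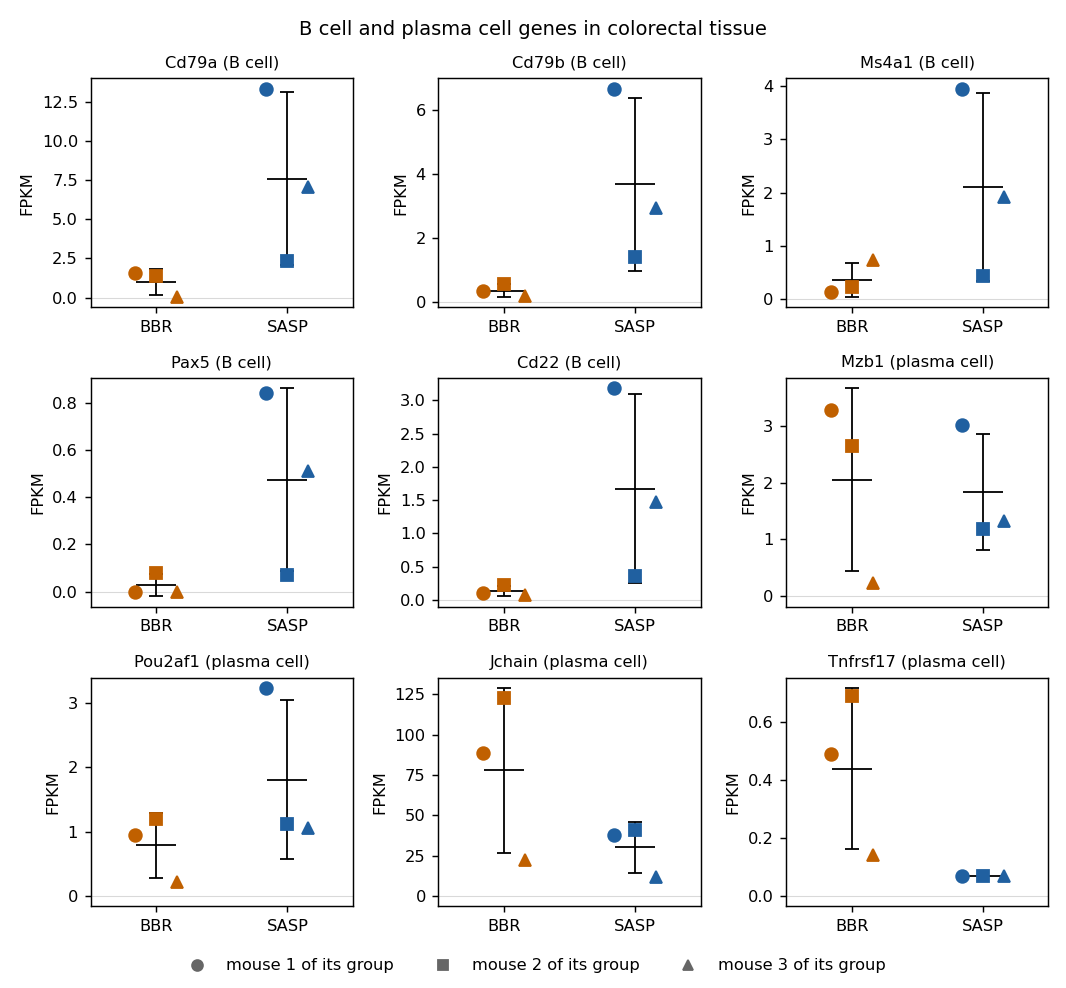
FPKM of the 9 genes in each mouse, one panel per gene with its own vertical axis from near 0. Symbols give the mouse within its group, and black bars the group mean with 1 SD (n = 3). SASP mouse 1 had the highest value of all 5 B cell genes, while Jchain and Tnfrsf17 were highest in BBR mice 1 and 2.

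The 5 B cell genes shared the same order within the SASP group. SASP mouse 1 was the highest of the 6 mice in 5 of 5 genes, where this held for 14.1% of the tested genes. SASP mice ran in the order 1, 3, 2 in 5 of 5 genes, against 14.8% of the tested genes. Both shares cover tested genes of either direction, whereas 3 of the 5 lay below the filter and all 5 had a higher mean in SASP mice. The shares are thus not a like for like comparison. The ratio of the highest to the lowest SASP mouse was 4.69 for Cd79b, 5.75 for Cd79a, 8.83 for Cd22 and 9.19 for Ms4a1. By residual SD on the log2 scale, Cd79a and Cd79b stood above 99.0% and 96.2% of all tested genes. The mean log2(FPKM + 1) over the 5 B cell genes was 0.42, 0.52 and 0.24 in BBR mice 1, 2 and 3 and 2.41, 0.81 and 1.69 in SASP mice. The lowest SASP mouse was thus nearer to the BBR mice than to the other SASP mice.

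Plasma cell genes were divided. Jchain was at 88.74, 122.5 and 22.1 FPKM under BBR against 37.97, 40.66 and 11.96 FPKM under SASP. BBR mice 1 and 2 stood above all SASP mice, but BBR mouse 3 lay below SASP mice 1 and 2. The means were 77.8 ± 51.1 and 30.2 ± 15.8 FPKM (SD, n = 3 each). The log2 fold change was 1.2 (SE 0.70, limma adjusted p = 0.273), not beyond the spread between mice. Jchain was the most abundant of the 9 genes on the FPKM scale, with the highest value of the 9 in each of the 6 mice. Its residual SD exceeded that of 99.5% of the tested genes. Without BBR mouse 3 its log2 fold change was 1.93 and passed the threshold (limma adjusted p = 0.0323). In that fit 4018 of all 11878 tested genes passed.

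Tnfrsf17 encodes BCMA, the receptor through which plasma cells take up survival signals. It was at 0.49, 0.69 and 0.14 FPKM under BBR and at 0.07 FPKM in each of the 3 SASP mice. These values correspond to about 7, 9 and 2 reads in BBR mice and about 1 read in every SASP mouse, so the group difference rests on a handful of reads. The groups did not overlap, as was the case with BBR higher for 13.1% of the genes below the filter. Cd22 lay below the filter in the opposite direction, where 3.46% of such genes had all BBR mice under all SASP mice. Neither gene passed when all genes above 0 in any mouse were tested (limma adjusted p = 0.133 for Tnfrsf17 and 0.141 for Cd22).

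Mzb1 encodes an endoplasmic reticulum helper of antibody assembly, found in plasma cells, marginal zone B cells and plasmacytoid dendritic cells. It was at 3.28, 2.64 and 0.24 FPKM under BBR against 3.01, 1.18 and 1.32 FPKM under SASP. Its log2 fold change was -0.02 (SE 0.49, limma adjusted p = 0.978). BBR mouse 3 had the lowest value, as in 34.2% of the tested genes. Pou2af1, a coactivator of the octamer factors that is used by B cells as well as plasma cells, was at 0.95, 1.19 and 0.22 FPKM under BBR against 3.23, 1.12 and 1.06 FPKM under SASP. SASP mouse 1 stood apart and the other 5 mice were mixed. The log2 fold change was -0.61 (SE 0.34, limma adjusted p = 0.260). The signs of Mzb1 and Pou2af1 were not stable. With a smooth muscle score as covariate the log2 fold changes were 1.24 and 0.31, and without BBR mouse 3 that of Mzb1 was 0.53.

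**Figure D2:**
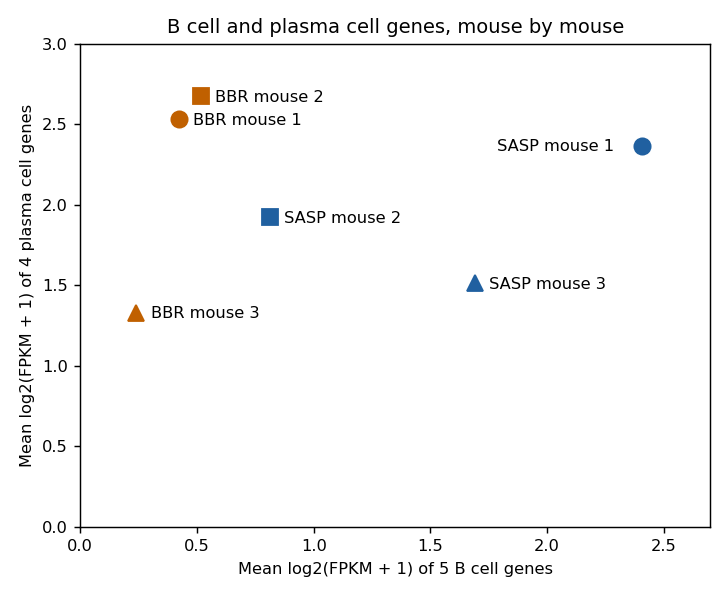
Mean log2(FPKM + 1) of the 5 B cell genes (horizontal axis) against that of the 4 plasma cell genes (vertical axis), one symbol per mouse. BBR mice sit at 0.24 to 0.52 on the horizontal axis and SASP mice at 0.81 to 2.41, while on the vertical axis the groups overlap, at 1.33 to 2.68 and 1.51 to 2.37.

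Of the 9 genes, 5 reached the filter. With the low genes included, the median log2 fold change was -1.09 over the 5 B cell genes and 0.19 over the 4 plasma cell genes. The median of all genes was 0.06 with no filter. Over tested genes only, the median was -1.80 for 2 B cell genes and -0.02 for 3 plasma cell genes. That of all tested genes was 0.10. The sign of the plasma cell median thus depended on the genes included. Among tested genes 37.9% had no overlap in either direction. The genes are read from the same cells and libraries, so the 9 genes are not 9 separate observations of a drug. In bulk tissue fewer cells of a type and less RNA per cell cannot be told apart.

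The balance of plasma cell to B cell RNA was compared within each mouse, where scaling between libraries cancels. The ratio of Jchain to Cd79a was 56.9, 88.8 and 442 in BBR mice 1, 2 and 3 and 2.84, 17.5 and 1.69 in SASP mice. The ratio of Mzb1 to Cd79a was 2.10, 1.91 and 4.80 in BBR and 0.226, 0.509 and 0.186 in SASP mice. Of the 20 ratios of a plasma cell gene to a B cell gene, 4 had Pax5 as denominator and could not be computed in every mouse. In 13 of the other 16 every BBR mouse lay above every SASP mouse, and in 3, all with Ms4a1 as denominator, the groups overlapped. Cd79a, Cd79b and Cd22 did not overlap on their own, so the count largely restates these denominators. No share over other gene pairs was computed. The ratios share their genes and are given as a description. Those of BBR mouse 3 rest on about 1 read of Cd79a, 4 of Cd79b, 5 of Cd22, 4 of Mzb1 and 2 of Tnfrsf17. BBR mouse 1 had about 8 reads of Cd79b and 7 of Cd22. Ratios with Tnfrsf17 rest on about 1 read of it in every SASP mouse.

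**Figure D3:**
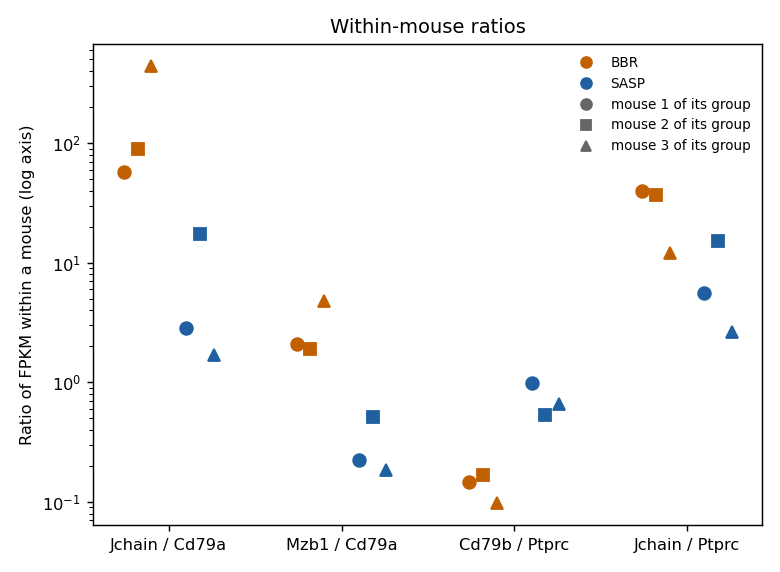
Ratios of FPKM within each mouse on a log axis, with BBR mice to the left and SASP mice to the right of each tick. Jchain over Cd79a ran from 56.9 to 442 in BBR and from 1.69 to 17.5 in SASP mice, and Cd79b over Ptprc from 0.0978 to 0.169 and from 0.532 to 0.979. Jchain over Ptprc overlapped between the groups.

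Pan-leukocyte markers leaned the same way without passing the test. Ptprc, which encodes CD45, was at 2.25, 3.32 and 1.84 FPKM under BBR against 6.80, 2.67 and 4.51 FPKM under SASP. Of the 10 pan-leukocyte markers 9 were tested, 8 of them lower in BBR mice with a median of -0.66. None passed the threshold (limma, 6 of 9 at an unadjusted p under 0.05, beside 3837 of all 12072 tested genes). Their summed level was 28.4 to 45.4 FPKM under BBR and 42.5 to 93.1 FPKM in SASP mice, with SASP mouse 1 highest in 10 of 10 markers, as for the B cell genes. Relative to Ptprc, Cd79b was at 0.147, 0.169 and 0.0978 in BBR and at 0.979, 0.532 and 0.654 in SASP mice, so the groups stayed apart. Jchain relative to Ptprc was at 39.4, 36.9 and 12.01 in BBR and 5.58, 15.2 and 2.65 in SASP mice, where the groups overlapped.

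T cell markers were low, and 9 of the 12 did not reach the filter. The groups overlapped in 12 of 12, where 16.6% of all genes below the filter and 37.9% of tested genes had no overlap. The SASP order 1, 3, 2 was seen in 9 of the 12, with summed levels of 5.6 to 9.66 FPKM under BBR and 4.41 to 10.3 FPKM in SASP mice. All 13 epithelial markers were tested, 2 lower and 11 higher in BBR mice, with a median of 0.08. Of all 12072 tested genes, 7337 were higher. The threshold was passed by 3 of the 13 (limma), beside 8.86% of all tested genes, and not by the other 10. Vil1, which encodes a protein of the brush border, fell by 0.55, while Krt18, a keratin gene, and Cdx2, an intestinal transcription factor gene, had log2 fold changes of 0.75 and 1.5 (limma adjusted p = 0.0328, 0.0163 and 0.0422). Smooth muscle markers ran against the B cell genes, with 10 of 10 higher in BBR mice. None passed the threshold (limma, 8 of 10 at an unadjusted p under 0.05, beside 3837 of all 12072 tested genes). All BBR mice lay above all SASP mice in 7 of the 10, against 21.3% of the tested genes, and in 3 the groups overlapped. The summed level of the smooth muscle markers was 3183, 3402 and 7414 FPKM in BBR mice 1, 2 and 3. It was 863, 2622 and 1940 FPKM in SASP mice, thus highest in BBR mouse 3 and lowest in SASP mouse 1. Summed over the 5 B cell genes the levels were 2.14, 2.46 and 1.03 FPKM under BBR and 28.0, 4.6 and 14.0 FPKM in SASP mice. With the smooth muscle score as covariate the log2 fold change of Cd79b was -0.68 and that of Cd79a -0.40 (limma adjusted p = 0.373 and 0.568), and with a pan-leukocyte score they were -0.64 and -0.56 (adjusted p = 0.375 and 0.544). Summed smooth muscle levels did not overlap between the groups, so the drug and the share of muscle in the tissue cannot be told apart. The part of either cell mixture in the result was not tested.

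The wider programme was read from 5 further lists, of which 112 genes were listed and 72 tested. BBR mice were lower in 45 and higher in 27, with a median of -0.14. The threshold was passed by 8 genes, 7 lower and 1 higher, which is 8 of 72 beside the 8.86% of all tested genes. It was passed by 24 of 71 without BBR mouse 3 and by 2 to 5 without any other single mouse. Over all genes it was passed by 4018 of 11878 without BBR mouse 3 and by 51 to 405 without any other single mouse. With the smooth muscle or the pan-leukocyte covariate 0 of the 8 passed, where 18 of all 12072 tested genes passed with each. At an unadjusted p under 0.05 (limma) were 14 and 9 of the 72, beside 2048 and 1622 of all tested genes. Each of the 8 kept its direction. The log2 fold change of Irf8, for example, was -2.09 and -2.01 with these covariates against -2.21 without, that of Sdc1 0.86 and 0.73 against 0.82, and that of Spcs2 -0.41 and -0.33 against -0.51. Antibody constant region genes and Igll1, 11 symbols of the IgA transport and class switch list, were not among the 18268 genes listed and were not analysed.

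B cell receptor signalling genes gave 0 calls among 17 tested (limma, 2 at an unadjusted p under 0.05, beside 3837 of all 12072). Of the 17, 12 were lower and 5 higher, with a median of -0.12. The most abundant were Cd81, a widely expressed tetraspanin (log2 fold change 0.27, SE 0.13, limma adjusted p = 0.206), Blnk, an adaptor of the receptor (-0.12, SE 0.16, adjusted p = 0.630), and Bcl10, a link to NF-kB (0.27, SE 0.11, adjusted p = 0.158). These 3 genes are also used outside B cells. Of the 11 genes below the filter, 5 had all BBR mice under all SASP mice and 1 all BBR mice above them, which held for 3.46% and 13.1% of all genes below the filter. The complement receptor gene Cr2, 1 of these 5, is named after its values were seen. It stood at 0.01, 0.16 and 0.01 FPKM under BBR against 2.12, 0.28 and 0.94 FPKM under SASP.

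Of the B lineage transcription factors 11 were tested, with 5 lower, 6 higher and a median of 0.0053. Only Irf8 passed the threshold. It serves germinal centre B cells but also macrophages, dendritic cells and interferon responses. Irf8 was at 19.01, 17.82 and 17.74 FPKM under BBR against 89.49, 69.91 and 108.5 FPKM under SASP, with a tight BBR group and no overlap (log2 fold change -2.21, SE 0.16, limma adjusted p = 0.00171). Unlike the 5 B cell genes, it was highest in SASP mouse 3. It kept its call in the 6 fits that each left out 1 mouse. Id3 and Relb, the other abundant factors, had log2 fold changes of 0.05 and 0.14 (limma adjusted p = 0.896 and 0.699).

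The plasma cell programme and its secretory machinery had 21 tested genes, 15 lower and 6 higher in BBR mice, with a median of -0.23. Past the threshold were 4 lower genes and 1 higher gene, beside 5.04% and 3.82% of all tested genes. Prdm1 encodes Blimp-1, the factor that drives plasma cell differentiation and is also used by T cells and epithelium. It was at 0.86, 0.71 and 2.49 FPKM under BBR against 8.83, 4.07 and 6.10 FPKM under SASP, and the log2 fold change was -1.66 (SE 0.34, limma adjusted p = 0.0353). Sdc1 encodes syndecan-1, or CD138, a plasma cell surface marker that epithelial cells also carry. It was at 70.82, 64.16 and 54.91 FPKM under BBR against 32.93, 39.42 and 33.49 FPKM under SASP, a rise of 0.82 (SE 0.13, limma adjusted p = 0.0186). Thus Prdm1 was lower and Sdc1 higher in BBR mice. Creld2, Pdia4 and Spcs2, which serve protein folding and signal peptide cleavage in the endoplasmic reticulum of any secreting cell, fell by 0.96, 0.54 and 0.51 (limma adjusted p = 0.0189, 0.0260 and 0.0435). Calls in this list were fragile: Prdm1, Pdia4 and Spcs2 each lost theirs in 5 of the 6 fits without 1 mouse, and Creld2 and Sdc1 in 4. Cd38, Ssr4 and Xbp1, the most abundant of the list, had log2 fold changes of -1.06, -0.06 and -0.25 (limma adjusted p = 0.200, 0.726 and 0.447). Without BBR mouse 3 Cd38 fell by 1.72 (limma adjusted p = 0.00124), in a fit where 4018 of all 11878 tested genes passed. Cd38 was at 367 FPKM in BBR mouse 3, far above the 101 and 85.2 FPKM of BBR mice 1 and 2. Jchain and Mzb1 were instead lower in BBR mouse 3 than in BBR mice 1 and 2, at 22.1 and 0.24 FPKM. The cells that carry Cd38 in this tissue were not tested, so its values are not read as plasma cell RNA.

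IgA transport and class switch genes gave 0 calls among 5 tested (limma, 1 at an unadjusted p under 0.05, beside 3837 of all 12072). Pigr, the receptor that carries J chain bearing IgA across the epithelium, was at 1428 ± 121 FPKM for BBR against 1658 ± 85.1 FPKM for SASP (SD, n = 3 each). All BBR mice lay under all SASP mice, yet the log2 fold change of -0.22 with its SE of 0.15 did not pass (limma adjusted p = 0.358). Its level was far above that of Jchain in every mouse on the FPKM scale. Tgfbr2, a TGF-beta receptor, and Aldh1a1, which makes retinoic acid, had log2 fold changes of 0.45 and 0.67 (limma adjusted p = 0.0663 and 0.177).

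Among genes of survival, homing and follicles, 18 were tested, 12 lower and 6 higher, with a median of -0.23. Cxcl13, the chemokine that draws B cells into follicles, was at 1.38, 3.83 and 4.17 FPKM under BBR against 13.19, 10.92 and 18.03 FPKM under SASP, and the log2 fold change was -1.92 (SE 0.33, limma adjusted p = 0.0219). SASP mouse 3 was highest and SASP mouse 2 was well above all BBR mice, unlike in Cd79a. The call of Cxcl13 was lost without SASP mouse 1 or 3 (adjusted p = 0.1003 and 0.0971). Icam1, an adhesion molecule of endothelium and of inflamed cells, fell by 1.58 (SE 0.14, limma adjusted p = 0.00341) and kept its call without any 1 mouse. The log2 fold change was -0.20 for Ccl28, which attracts IgA plasma cells to the colon, -0.14 for Ltbr, the lymphotoxin receptor of follicle stroma, and 0.79 for Ccl21a, a chemokine of lymphatic vessels and T cell zones (limma adjusted p = 0.410, 0.337 and 0.0805). The receptor of Cxcl13, Cxcr5, lay below the filter at 0, 0.18 and 0.10 FPKM under BBR against 1.95, 0.25 and 1.11 FPKM under SASP and is named after its values were seen.

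**Figure D4:**
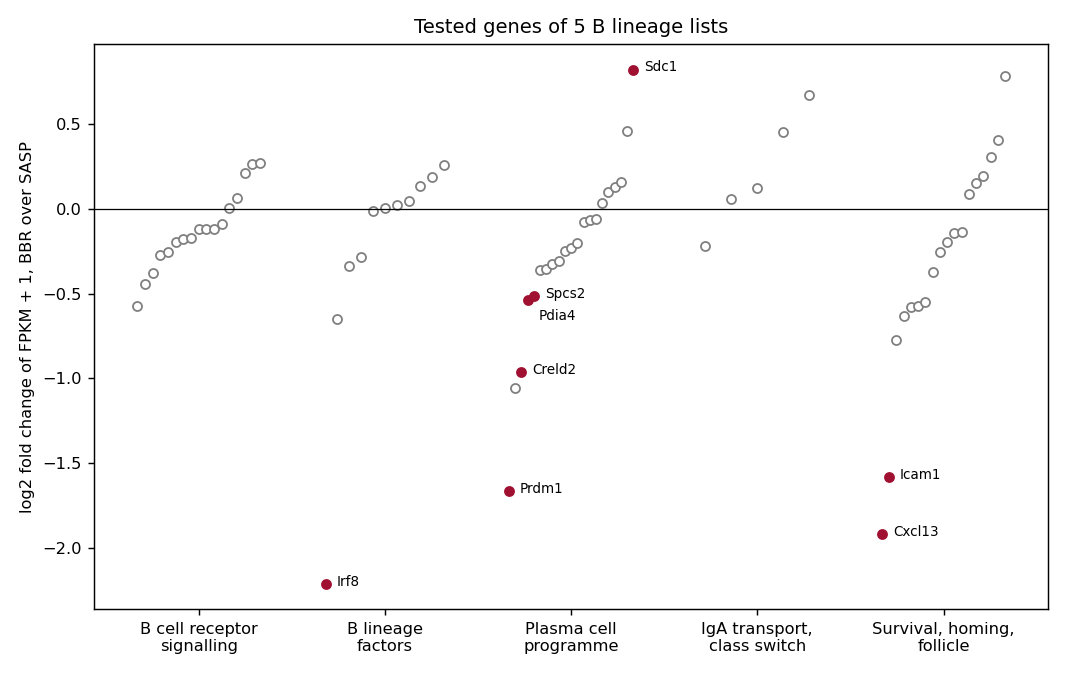
Log2 fold change of FPKM + 1, BBR over SASP, of the 72 genes tested in 5 B lineage lists, sorted within each list. Filled circles mark the 8 genes with a limma adjusted p under 0.05, and open circles the other 64. Sdc1 was the only filled gene above 0.

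Genes outside the set were ranked by how closely they followed the mean profile of the B cell genes over the 6 mice, as the root mean square difference of centred log2(FPKM + 1) values. The nearest 5 were H2-Q6 (0.135), Cd37 (0.146), Coro1a (0.159), H2-Q7 (0.172) and Ccrl2 (0.189). Cd37, a tetraspanin gene of mature B cells, was at 0.71, 1.52 and 0.72 FPKM under BBR against 6.22, 1.41 and 3.57 FPKM under SASP, while Coro1a is used by leukocytes in general and the H2-Q genes encode class I antigens. H2-Q6 and H2-Q7 are near-identical, so how reads were shared out between them is uncertain. The nearest 5 to the plasma cell genes were Prr15l (0.134), Aspg (0.142), Evpl (0.157), Frat1 (0.158) and Hr (0.168). Each of these was lowest or next to lowest in BBR mouse 3 and highest in BBR mouse 1 or 2. BBR mouse 3 was the lowest of the 6 mice in 34.2% of the tested genes. Evpl, an envelope protein of epithelia, is no plasma cell gene.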

How the data were processed

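Colorectal RNA of 6 mice was sequenced, 3 given BBR and 3 given SASP, with groups from the treatment labels and replicate numbers in accession order. The deposited table holds FPKM values per gene and mouse, which the authors made by filtering reads with SOAPnuke, aligning with Bowtie2 2.2.5 and estimating expression with RSEM 1.2.12; the submitters' processing notes name mm9, and the annotation is not given in the sources used here. The methods describe rRNA depletion and the labels an Illumina kit. FPKM are not counts, so limma 3.58.1 (R 4.3.3) was fitted with a variance trend to log2(FPKM + 1), a scale that understates changes of low genes. Genes with at least 1 FPKM in at least 3 mice were tested, and p-values were two-sided and Benjamini-Hochberg adjusted over all of them, and called under 0.05. Exact permutation of 3 against 3 mice cannot go below 0.10 and was not used.

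Named genes were the 9 members, the genes of each list past the threshold (at most 5) and its 3 most abundant, and the 5 nearest profiles. Members and lists were chosen with earlier results of these data known. The fit was tested on simulated data. Depth was approximated as 16400000 to 18200000 reads from 31 to 56 short genes per mouse seen in 1 mouse only, each taken as 1 read, with GENCODE M21 lengths, so it covers counting only. The p-values measure only the spread between these samples. No pair of mice had the same value in more than 0.389% of tested genes. Some genes of the lists are not reported here by name. Alternatives were the pseudocount, filter, scaling, trend, weights, covariates and each left-out mouse.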

Additional observations from a re-analysis of the deposited data

How the results depend on the processing

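No paired analysis was possible because the labels share no replicate numbers between the groups. Of all tested genes, 1069 passed (461 higher, 608 lower in BBR mice), against 608 with no filter, 1683 with median-ratio scaling (499 higher, 1184 lower), 1737 with quantile normalization, 7126 with array weights (4636 higher, 2490 lower), and 18 with either the smooth muscle or the pan-leukocyte covariate; without single mice it ranged from 51 (without SASP mouse 3) to 4018 (without BBR mouse 3), with 59, 131, 371 and 405 without SASP 1, BBR 1, BBR 2 and SASP 2. Median-ratio scaling moved the median of all genes by -0.12. At an unadjusted p under 0.05 (limma) were 3837 of 12072 genes in the main fit and 4683 of 18260 with no filter.

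Of the set, 1 gene passed, against 0 with no filter (5 at an unadjusted p under 0.05), 0 with a mean of at least 5 FPKM (0; 1 gene tested), 0 with no variance trend (2), 0 with the smooth muscle covariate (2), 0 with the pan-leukocyte covariate (0) and 4 with array weights (Cd79a and Cd79b lower, Jchain and Mzb1 higher); without single mice it ranged from 0 to 2. Of the other lists, 8 passed, against 40 with array weights, 0 with either covariate, and 2 to 24 without single mice. Mzb1 turned from -0.02 to 0.75 with array weights, 1.24 with the smooth muscle and 0.80 with the pan-leukocyte covariate, and ranged from -0.36 to 0.53 without single mice. Pou2af1 turned to 0.31 and 0.12 with the covariates. Id3 turned to -0.083 with median-ratio scaling, and Ssr4 to 0.0021 with quantile normalization, 0.014 with array weights and 0.013 with the smooth muscle covariate. Without single mice Id3 ranged from -0.19 to 0.26, Ssr4 from -0.10 to 0.011, Blnk from -0.29 to 0.0017 and Relb from -0.0043 to 0.39. The causes were not tested. Cd79a kept its direction in every fit that tested it and passed with array weights (-1.64) and without SASP mouse 2 (-2.54).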

Other observations

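Plasmacytoid dendritic cells share Mzb1 with plasma cells, so their markers were read too. The genes named here were picked after their values were seen. Siglech, a lectin gene typical of these cells and 1 of 8 markers listed, was at 0.31, 0.65 and 0.08 FPKM under BBR against 0.32, 0.05 and 0.19 FPKM under SASP, with the groups overlapping. Of the 5 markers tested, 4 were lower and 1 higher in BBR mice. Bst2 and Ly6d passed the threshold as lower, as did 5.04% of all tested genes, with log2 fold changes of -1.77 and -1.60 (limma adjusted p = 0.0266 and 0.0458). Klk1, the most abundant of the list, was higher in every BBR mouse than in every SASP mouse, as were 21.3% of the tested genes. Its log2 fold change was 0.46 and that of Tcf4 -0.07 (limma adjusted p = 0.0931 and 0.725). With means of 990 FPKM for BBR and 720 FPKM for SASP, Klk1 lay far above Siglech. Its cell source was not tested, so it is not read as a signal of these cells. Bst2 is also interferon inducible, and Ly6d is also found on B cell precursors and epithelium. Of the 10 myeloid markers 8 were tested, 4 lower and 4 higher in BBR mice, with a median of -0.04. Cd14 and Fcgr1 passed as lower, as did 5.04% of all tested genes, but Fcgr1 reached the filter only through the SASP mice, at 0.42, 0.63 and 0.42 FPKM under BBR against 1.63, 1.32 and 1.44 FPKM under SASP.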
